A study of Mus musculus with 3 samples.

Results

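The vacuolar ATPase (V-ATPase) is the rotary pump that acidifies lysosomes, and the cathepsins are the proteases that work in the acid it makes. The genes described here are those whose symbols begin with Atp6v0 or Atp6v1 followed by a letter, or are Cts followed by letters or digits alone. The pattern found 46 genes of the 32285 in the count tables: 22 subunits of the pump, 23 cathepsins and Atp6v1fnb, a gene named as a neighbour of Atp6v1f. They were measured in single cells of the mouse aortic adventitia, the outermost coat of the artery. The 3 groups were AngII_VWR (angiotensin II with voluntary wheel running), AngII (angiotensin II, a hormone that raises blood pressure) and Vehicle (saline). The series held 9 mice, 3 per group, and each group was 1 library. How the mice were combined, and their strain, age, dose and length of treatment, are not given in the sources used here.

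The pump has a V1 sector in the cytosol, which splits ATP, and a V0 sector in the membrane, through which protons pass. In V1, the A and B subunits form the catalytic head, D and F the central rotor, C, E and G the side stalks, and H is a regulatory subunit. In V0, the c and c″ proteolipids form the turning ring, the a subunit carries the proton path and differs between organelles, and d links the ring to the rotor. Most cathepsins are cysteine proteases, among them the elastin and collagen degrading S, K and L, while D and E are aspartic proteases and A and G serine proteases. Macrophages depend on this system to digest what they engulf and to prepare antigen, and osteoclasts use the same pump and cathepsin K outside the cell to dissolve bone. Transcription factors of the MiT/TFE family switch on many lysosomal genes through a short palindromic element near their start sites.

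That element could be looked up in the promoters of these genes, taken from RefSeq windows (GRCm38.p6) that run from 250 bases before to 50 after a start site. Windows were found for 36 of the 46 genes. The letters TCACGTGA, which are the same on both strands and hold the shorter CACGTG, stood in the windows of 5 of the 36 genes, namely Ctsa, Ctsd, Atp6v1a, Atp6v0d1 and Atp6v0e. Of all 27025 genes with a window, 1.12% had them. The shorter CACGTG stood in 9 of the 36 genes, the 5 named among them, against 8.09% of all genes. GTCACGTG, searched on both strands and overlapping both other motifs, stood in 4 genes, against 2.55%. The stretches below are shown because they place the element near RefSeq start sites of genes whose levels are described next. Only matches before such a start site are shown. By the GENCODE gene bounds, the stretches of Ctsa, Ctsd, Atp6v1a and Ctsl lie inside the gene. Capitals mark TCACGTGA in the first 3, which were Ctsa at chr2:164833744-164833772 (plus strand), Ctsd at chr7:142387903-142387942 (minus strand) and Atp6v1a at chr16:44139368-44139407 (minus strand). Capitals mark CACGTG in the others, Atp6v0b at chr4:117887343-117887382 (minus strand), Ctsl at chr13:64370734-64370770 (minus strand) and Ctsf at chr19:4855069-4855108 (plus strand). A match describes the letters and does not show a bound site.
Ctsa: aacaatgagcaaactgTCACGTGAtgcag
Ctsd: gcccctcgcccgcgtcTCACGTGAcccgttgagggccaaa
Atp6v1a: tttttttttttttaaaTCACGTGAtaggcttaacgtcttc
Atp6v0b: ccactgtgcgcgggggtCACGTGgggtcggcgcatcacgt
Ctsl: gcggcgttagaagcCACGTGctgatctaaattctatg
Ctsf: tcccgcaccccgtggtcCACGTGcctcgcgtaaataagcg

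Cells were sorted in the data by their own UMIs, molecules counted once each. Macrophages had at least 0.3% of UMIs from C1qa, C1qb and C1qc, and fibroblasts had at least 1% from Col1a1, Col1a2, Dcn and Lum. After filtering, 16125 cells of AngII_VWR, 9115 of AngII and 12324 of Vehicle were kept, with a median of 4472, 13154 and 9430.5 UMIs. Macrophages numbered 3221 in AngII_VWR, 1998 in AngII and 2537 in Vehicle, and fibroblasts 10913, 6081 and 6545 in the same order. Macrophage markers that the gate did not use (9 of 9 detected) summed to 17554, 23571 and 22038 CPM (UMIs per 1000000 of the class) in macrophages, and to 329, 166 and 164 CPM in fibroblasts. Fibroblast markers (8 of 8 detected) summed to 24561, 24725 and 30839 CPM in fibroblasts, and to 1461, 529 and 669.6 CPM in macrophages. AngII_VWR stood apart in 2 ways: it had the lowest depth, and each class carried the most RNA of the other class's markers. The remaining cells numbered 1915, 1022 and 3177, and in Vehicle their smooth muscle markers summed to 16604 CPM, against 1528 CPM in AngII_VWR and 1318 CPM in AngII. At most 51 barcodes were shared by any pair of libraries.

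Of the 46 genes, 26 reached 20 CPM in macrophages or fibroblasts of at least 1 library, 15 for the pump and 11 for cathepsins. The other 20 stayed below, and 8 of them had no UMI in any class. These 8 were all among the 9 cathepsins of the rodent placental family on chromosome 13, and the ninth of them, Ctsq, had its only signal at 0.0336 CPM in the remaining cells of Vehicle. The kidney type subunits Atp6v1b1 and Atp6v0a4, the testis type Atp6v1e2, and Atp6v1c2 and Atp6v1g3 did not exceed 3.73 CPM in any class and library. The levels count 3′ ends, so they are compared between cells and not between genes.

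**Figure D1:**
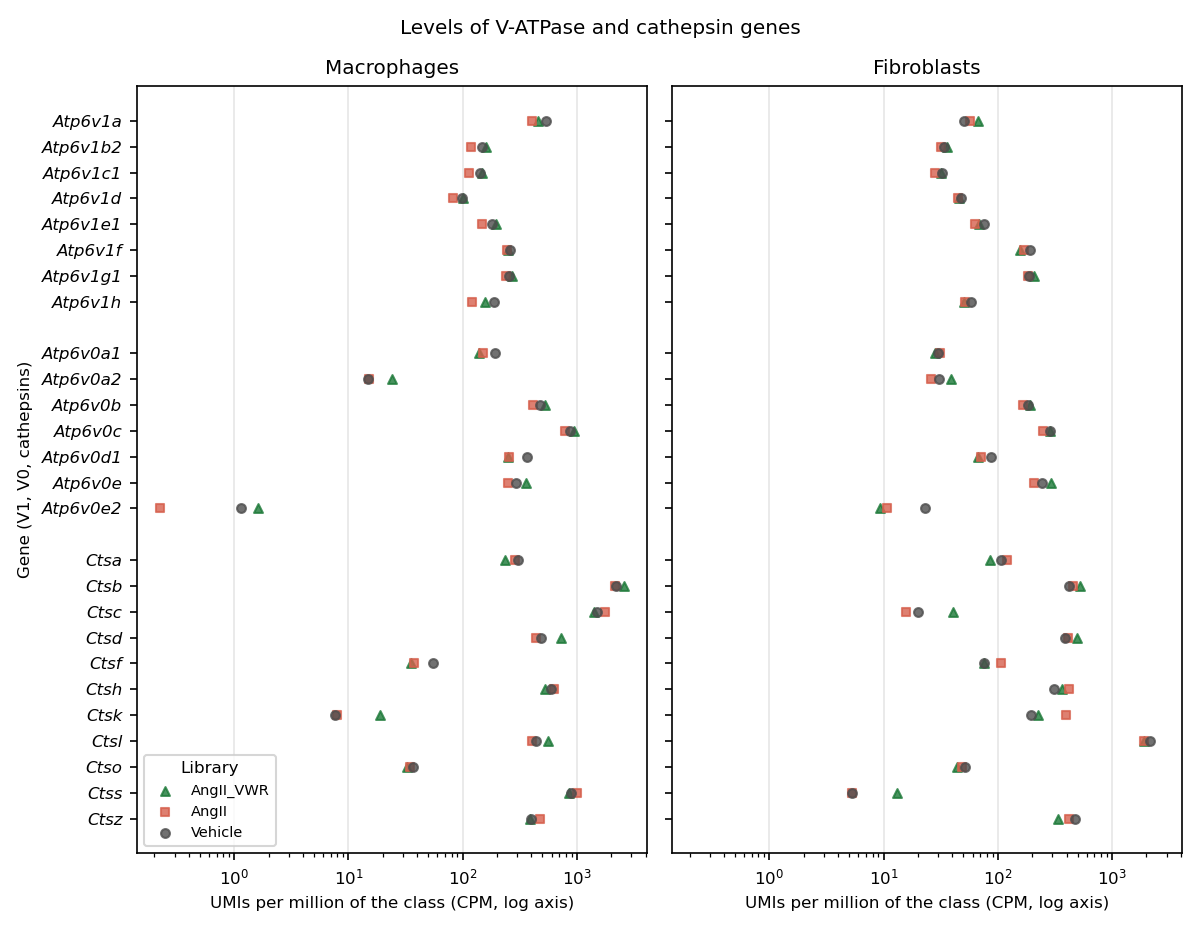
Level of each of the 26 genes in macrophages and fibroblasts, as CPM of the class on a log axis, with a marker for each library (AngII_VWR, AngII, Vehicle). For most genes the 3 libraries lie close together within a class, while Ctsk in fibroblasts is apart in AngII at 398 CPM, against 226 CPM in AngII_VWR and 193.5 CPM in Vehicle.

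Most subunits of the pump were higher in macrophages than in fibroblasts. All 9 V1 subunits tested rose in macrophages over fibroblasts. Of 9 V0 subunits, 6 rose and 3 fell, and the 3 were alternative forms. Each library gave both classes, so the test was edgeR's quasi-likelihood test on 6 sums with the library as block, with Benjamini-Hochberg adjustment over all genes tested. Of 30 genes of the set that were tested, 21 rose and 7 fell, where 65.6% of all 16565 genes were called, 30.9% higher and 34.7% lower. The median log2 ratio was 1.53 over the 18 pump subunits tested and 0.58 over the 12 cathepsins, against −0.05 over all genes. Only 3 libraries, each of another treatment, stood behind these p-values, with 2 residual degrees of freedom.

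Atp6v1a, the catalytic A subunit, had 452, 401 and 536 CPM in macrophages of AngII_VWR, AngII and Vehicle, against 66.5, 57.5 and 50.7 CPM in fibroblasts. Its log2 ratio was 3.06 (SE 0.21), the largest of V1, with an edgeR adjusted p of 0.00082. The lowest macrophage value was above the highest fibroblast value in this and every other V1 subunit at 20 CPM or more. Atp6v1b2, the B subunit of most tissues, averaged 142 ± 22 CPM in macrophages and 33.8 ± 1.9 CPM in fibroblasts (SD, n = 3 libraries each). Its log2 ratio was 2.12, and that of the stalk subunit Atp6v1c1 was 2.19. The smallest ratios of V1 were those of Atp6v1g1, a stalk subunit, at 0.47, and Atp6v1f, of the rotor, at 0.61. Both head subunits thus had larger ratios than these stalk and rotor subunits, a difference between genes that was not tested.

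In V0, Atp6v0a1 averaged 160.2 ± 27.6 CPM in macrophages and 29.7 ± 1.4 CPM in fibroblasts (SD, n = 3 libraries each), a log2 ratio of 2.49 (SE 0.14) with an edgeR adjusted p of 0.00073. Atp6v0d1, the common d subunit, had a log2 ratio of 2.02, the ring proteolipid Atp6v0c 1.74 and its partner Atp6v0b 1.46. The a2 form pointed the other way. Atp6v0a2, known from the Golgi, had 24.1, 15.1 and 14.8 CPM in macrophages of AngII_VWR, AngII and Vehicle, against 38.9, 25.9 and 30.5 CPM in fibroblasts, a log2 ratio of −0.77 with an edgeR adjusted p of 0.0029. Atp6v0e2, an alternative form of the small e subunit, also fell, at 0.99 ± 0.70 CPM in macrophages against 14.2 ± 7.5 CPM in fibroblasts, while the common Atp6v0e rose by a log2 ratio of 0.35. Atp6v0d2, the d form of osteoclasts and some macrophages, was below 20 CPM and is named because of its role. It had 6.66, 7.55 and 7.27 CPM in macrophages, against 0.223, 0.134 and 0.0547 CPM in fibroblasts, and its log2 ratio of 5.84 was the largest of the pump. Among the V0 forms that the symbol pattern found, then, a1, d1, d2 and e rose in macrophages, and a2, a4 and e2 fell. The a3 form has the symbol Tcirg1, which the pattern does not match, and is not among them.

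The cathepsins divided between the classes. In macrophages Ctss, Ctsc, Ctse, Ctsb, Ctsa and Ctsh rose, and in the same comparison Ctsk, Ctsl, Ctsf and Ctso fell. Cathepsin S (Ctss), an elastin degrading protease that also trims the invariant chain of MHC class II, had 852, 996.5 and 889 CPM in macrophages of AngII_VWR, AngII and Vehicle, against 13.0, 5.31 and 5.24 CPM in fibroblasts. That was a log2 ratio of 7.07 (SE 0.49) with an edgeR adjusted p of 0.00091. Cathepsin C (Ctsc), the dipeptidyl peptidase that activates serine proteases of immune granules, had 1402, 1779 and 1490.1 CPM, against 40.6, 15.6 and 19.9 CPM, a log2 ratio of 6.13. Both were hardly seen outside macrophages among the gated cells, and their fibroblast values were highest in AngII_VWR.

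Cathepsin K (Ctsk), the collagen degrading enzyme of osteoclasts, was the mirror image, at 18.7, 7.97 and 7.66 CPM in macrophages against 226, 398 and 193.5 CPM in fibroblasts. Its log2 ratio was −4.56 (SE 0.46), or 23.6-fold lower in macrophages, with an edgeR adjusted p of 0.0019. Ctsk and Ctss lie side by side on chromosome 3 on the plus strand, at 95499256 to 95509362 and 95526786 to 95556403 (GRCm38), with 17423 bases between them. A pair of neighbouring genes thus held the largest ratios of the cathepsins in opposite directions. Cathepsin L (Ctsl), a broad lysosomal endopeptidase, had 556, 402 and 438 CPM in macrophages against 1901, 1895 and 2129.8 CPM in fibroblasts, 4.08-fold lower in macrophages with an edgeR adjusted p of 0.00094.

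Cathepsin B (Ctsb), which cuts both as an endopeptidase and from the end of chains, had 2568, 2161 and 2205 CPM in macrophages against 524, 459 and 419 CPM in fibroblasts, 5.20-fold higher. The carboxypeptidase Ctsa was 2.79-fold higher in macrophages, and the aminopeptidase Ctsh 1.70-fold. Ctsf was 1.93-fold lower, and Ctso 1.32-fold lower. Ctsd and Ctsz were not called: Ctsd averaged 550 ± 153 CPM in macrophages and 432 ± 58 CPM in fibroblasts (edgeR adjusted p = 0.056), and Ctsz 421 ± 47 and 410.1 ± 67.6 CPM (edgeR adjusted p = 0.49; SD, n = 3 libraries each). Without the Vehicle library Ctsh and Atp6v1g1 were not called, without AngII Ctso, Ctsf and Atp6v1g1 were not, and without AngII_VWR Ctsf was not. Atp6v0e was called in none of these.

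**Figure D2:**
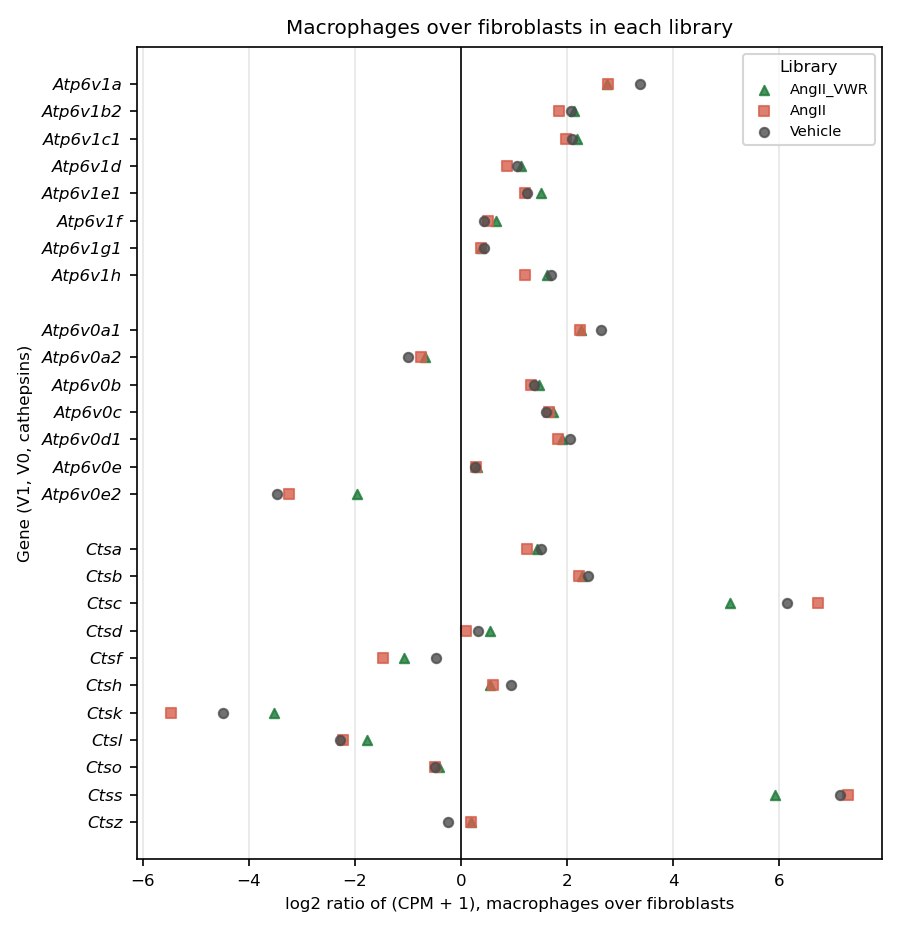
log2 ratio of CPM + 1 in macrophages over fibroblasts for the 26 genes, with 1 point per library, where values right of 0 are higher in macrophages. All V1 points lie right of 0, Ctss and Ctsc lie farthest right and Ctsk and Ctsl farthest left among the cathepsins, and the points of Ctsz lie on both sides of 0.

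Other lysosomal genes gave a frame for these ratios, in lists taken from general knowledge of the pathway. Of 13 other genes of the pump tested, 10 rose in macrophages and none fell, by the same edgeR test, where 30.9% of all genes rose and 34.7% fell. Their list was of assembly and accessory genes, but it also held Tcirg1, the a3 subunit of V0. Atp6ap2, the accessory subunit that also binds prorenin, was 2.02-fold higher. Of 37 lysosomal hydrolases and activators, 22 rose and 8 fell, with Lgmn, the protease that processes several cathepsins, 14.0-fold higher, Grn 2.38-fold and Psap 1.70-fold. Of 21 lysosomal membrane genes 16 rose and 4 fell. Lamp1 was 1.72-fold higher, Laptm5 138.5-fold higher and the tetraspanin Cd63 1.59-fold lower. Of 9 genes of mannose 6-phosphate sorting, which carries new enzymes to lysosomes, 4 rose and 3 fell, near the 65.6% of all genes that were called, and the receptor M6pr was 3.14-fold higher. Of 10 MiT/TFE factors and their regulators 8 rose and none fell, among them Mitf at 3.03-fold and Fnip1 at 5.12-fold. The cathepsin inhibitors ran the other way, with 1 of 6 higher and 4 lower. Cst3, the secreted inhibitor cystatin C, was 2.38-fold lower in macrophages, while Cstb, its cytosolic relative, was 2.29-fold higher.

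The share of each cell's own UMIs gave the same picture per cell. In macrophages the pump took a median of 0.384% of UMIs in AngII_VWR, 0.324% in AngII and 0.387% in Vehicle, and in fibroblasts 0.154, 0.140 and 0.156%. Cathepsins took 0.685, 0.689 and 0.657% in macrophages, against 0.412, 0.436 and 0.394% in fibroblasts. The middle of the macrophage cells for the pump ran from 0.298 to 0.470% in AngII_VWR, 0.267 to 0.387% in AngII and 0.313 to 0.461% in Vehicle (25th to 75th percentile). These ranges overlapped between libraries, and the AngII range was the lowest.

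The remaining comparisons set treatments against each other, AngII over Vehicle and AngII_VWR over AngII, and share the AngII library. With 1 library per group there was no test. A gene counted as higher or lower when it differed by at least 1.5-fold on the scale of CPM + 1, and intervals are exact 95% conditional intervals that cover counting error only, not mice or preparations. Of the 46 genes, 26 were measured in each of macrophages and fibroblasts, with at least 5 CPM in either library and at least 10 UMIs over both.

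In macrophages of AngII against Vehicle, pump subunits were lower by small amounts and cathepsins were not lower as a group. Atp6v1h, the regulatory H subunit, was the only gene past 1.5-fold, among 26 measured, where 13.1% of all 9820 measured genes were past it, 6.80% upward and 6.29% downward. It had 120.4 CPM in AngII (116.5 to 124.3) against 190.02 CPM in Vehicle (185.3 to 194.8), 1.58-fold lower (1.52 to 1.64). AngII_VWR, which does not enter this comparison, had 157 CPM. Of 15 pump subunits 13 were below 0 on the log2 scale, among them all 8 of V1, with a median of −0.26, beside 51.8% of all genes below 0 and a median of −0.01. Summed over the pump, AngII had 3352 CPM against 4034 CPM in Vehicle. Atp6v0d1 was 1.42-fold lower (1.38 to 1.46) and Atp6v1a 1.34-fold lower (1.31 to 1.37), both short of 1.5-fold. Atp6v0a2 at 1.02-fold and Atp6v0d2 at 1.04-fold were the 2 subunits above 0, and the intervals of both held 1. Of 11 cathepsins 5 were above 0 and 6 below, with a median of −0.03, and Ctsf, 1.47-fold lower, was the farthest from 0. The cathepsins summed to 7257 CPM in AngII against 6900.1 CPM in Vehicle. Of 37 hydrolases 18 were above 0, and of 21 lysosomal membrane genes 16 were below 0 with a median of −0.16.

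In macrophages of AngII_VWR against AngII, pump subunits were higher by about the amount by which most genes were higher, and 3 genes passed 1.5-fold, all upward. Of all 10188 measured genes 19.3% were past it, 14.3% upward and 5.03% downward, and their median log2 ratio was 0.17, so the scale itself leaned towards AngII_VWR. The pump had 12 of 15 subunits above 0 and all 8 of V1, where 68.5% of all genes were above 0. Its median was 0.29, or 0.11 beyond the median of all genes, and it summed to 3994 CPM against 3352 CPM. With TMM scaling the median of all genes moved to −0.03 and that of the pump to 0.08. Ctsd, the main aspartic protease of lysosomes, had 725 CPM in AngII_VWR (712.5 to 738) against 442 CPM in AngII (434.5 to 449), 1.64-fold higher (1.60 to 1.68). Atp6v0a2 had 24.1 against 15.1 CPM, 1.60-fold higher (1.40 to 1.83), and Ctsk 18.7 against 7.97 CPM, 2.35-fold higher (1.98 to 2.78). Ctsd and Atp6v0a2 did not reach 1.5-fold with TMM scaling, and Ctsk did. Ctsl at 1.38-fold (1.35 to 1.42) and Ctsb at 1.19-fold were the other cathepsins above 0. The 7 below 0 included Ctsc, 1.27-fold lower, and Ctss, 1.17-fold lower (1.15 to 1.19). Their median over all 11 was −0.09.

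Ctsk and the fibroblast markers in macrophages were both highest in AngII_VWR, while between AngII and Vehicle the markers were 529 and 669.6 CPM and Ctsk 7.97 and 7.66 CPM. Ctsk in macrophages was 8.27% of its fibroblast level in AngII_VWR, 2.00% in AngII and 3.96% in Vehicle, and the 8 fibroblast markers stood at 5.95, 2.14 and 2.17% of theirs. After thinning each cell to 2000 UMIs, 4.02% of macrophages in AngII_VWR had a Ctsk UMI, 1.78% in AngII and 1.31% in Vehicle, with 458, 34 and 176 shallower cells left out. Without thinning the shares were 9.16, 11.3 and 6.46%, at median depths of 4878, 15173.5 and 12871 UMIs. With 5% of the profile of all other cells of the library subtracted, the log2 ratio of 1.14 came to 3.31. That subtraction left no Ctsk in macrophages of AngII, so 3.31 does not measure the size of the difference. The part of fibroblast RNA in the difference was not tested.

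In fibroblasts of AngII against Vehicle, Ctsk was higher and Atp6v0e2 lower, and no other gene of the 26 measured was past 1.5-fold, where 11.7% of all 10449 measured genes were, 6.78% upward and 4.90% downward. Ctsk had 398 CPM in AngII (393.6 to 402) against 193.5 CPM in Vehicle (190.3 to 197), 2.06-fold higher (2.02 to 2.10). Of fibroblasts thinned to 2000 UMIs, 46.2% had a Ctsk UMI in AngII (44.9 to 47.5%) against 30.0% in Vehicle (28.8 to 31.3%), with 477 and 987 cells left out. Without thinning the shares were 82.6 and 65.1%, and in macrophages, a class that should lack most of it, 11.3 and 6.46%. The median UMIs were 12993 and 9494 in fibroblasts and 15173.5 and 12871 in macrophages. The level and the share of cells were both higher in AngII. With stricter gates the log2 ratio of 1.04 came to 0.66.

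Atp6v0e2 had 10.7 CPM in AngII (9.96 to 11.4) against 22.8 CPM in Vehicle (21.7 to 23.9), 2.14-fold lower (1.97 to 2.32). In AngII_VWR it had 9.20 CPM. Over all genes 62.0% were below 0. Of 15 pump subunits 13 were below 0, with a median of −0.17, beside −0.07 over all genes, and of 11 cathepsins 7 were above 0, with a median of 0.10 that turned to −0.10 with stricter gates. Ctsf, 1.39-fold higher (1.35 to 1.44), and Ctsh, 1.35-fold higher (1.33 to 1.38), followed Ctsk. Of 37 hydrolases 27 were above 0 and 3 at least 1.5-fold higher, where 6.78% of all measured genes were that much higher. The inhibitor Cst3 had 13586 CPM in AngII against 6721 CPM in Vehicle, so the inhibitor and the protease Ctsk were both higher in the fibroblast sum of AngII. Whether the same cells held both was not tested.

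In fibroblasts of AngII_VWR against AngII, Ctsk was lower and Ctsc and Ctss were higher, 3 of 26 genes measured, where 12.0% of all 10589 genes were past 1.5-fold, 7.07% upward and 4.88% downward. Ctsk had 226 CPM in AngII_VWR (222.2 to 229.97) against 398 CPM in AngII, 1.76-fold lower (1.72 to 1.80). In thinned cells, 33.7% of fibroblasts had a Ctsk UMI in AngII_VWR, with 2141 cells left out, against 46.2% in AngII, and 54.4% against 82.6% before thinning. AngII thus held the high value in both comparisons of Ctsk, and the 2 ratios share that library. Cst3 had 10363 CPM in AngII_VWR against 13586 CPM in AngII.

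Ctsk was also read in fibroblasts with and without a UMI of Thbs4, a matricellular gene known to differ between these libraries. Cells with one were 328 in AngII_VWR, 622 in AngII and 12 in Vehicle. They were deeper than the others, with a median of 5876, 17370.5 and 22134.5 UMIs against 4542, 12230 and 9483, and were not thinned. Ctsk stood at 227, 426 and 185 CPM in them and at 226, 393 and 193.5 CPM in the other fibroblasts. Leaving them out gave log2 ratios of −0.80 for AngII_VWR over AngII and 1.02 for AngII over Vehicle.

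Ctsc had 40.6 CPM in fibroblasts of AngII_VWR (38.9 to 42.2) against 15.6 CPM in AngII (14.8 to 16.5), 2.60-fold higher (2.43 to 2.79). Ctss had 13.0 CPM (12.1 to 13.9) against 5.31 CPM (4.82 to 5.83), 2.44-fold higher (2.17 to 2.75). Both were highest in the library where macrophage markers in fibroblasts were highest. In fibroblasts, macrophage markers stood at 1.87% of their macrophage level in AngII_VWR, 0.705% in AngII and 0.742% in Vehicle. Ctss stood at 1.52, 0.533 and 0.589%, and Ctsc at 2.89, 0.877 and 1.34%. The part of macrophage RNA in these differences was not tested. With TMM scaling 2 genes were higher and 3 lower, with Ctsa and Ctsf joining Ctsk. Of 15 pump subunits 10 were above 0, with a median of 0.16, beside 62.3% of all genes above 0 and a median of 0.10.

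**Figure D3:**
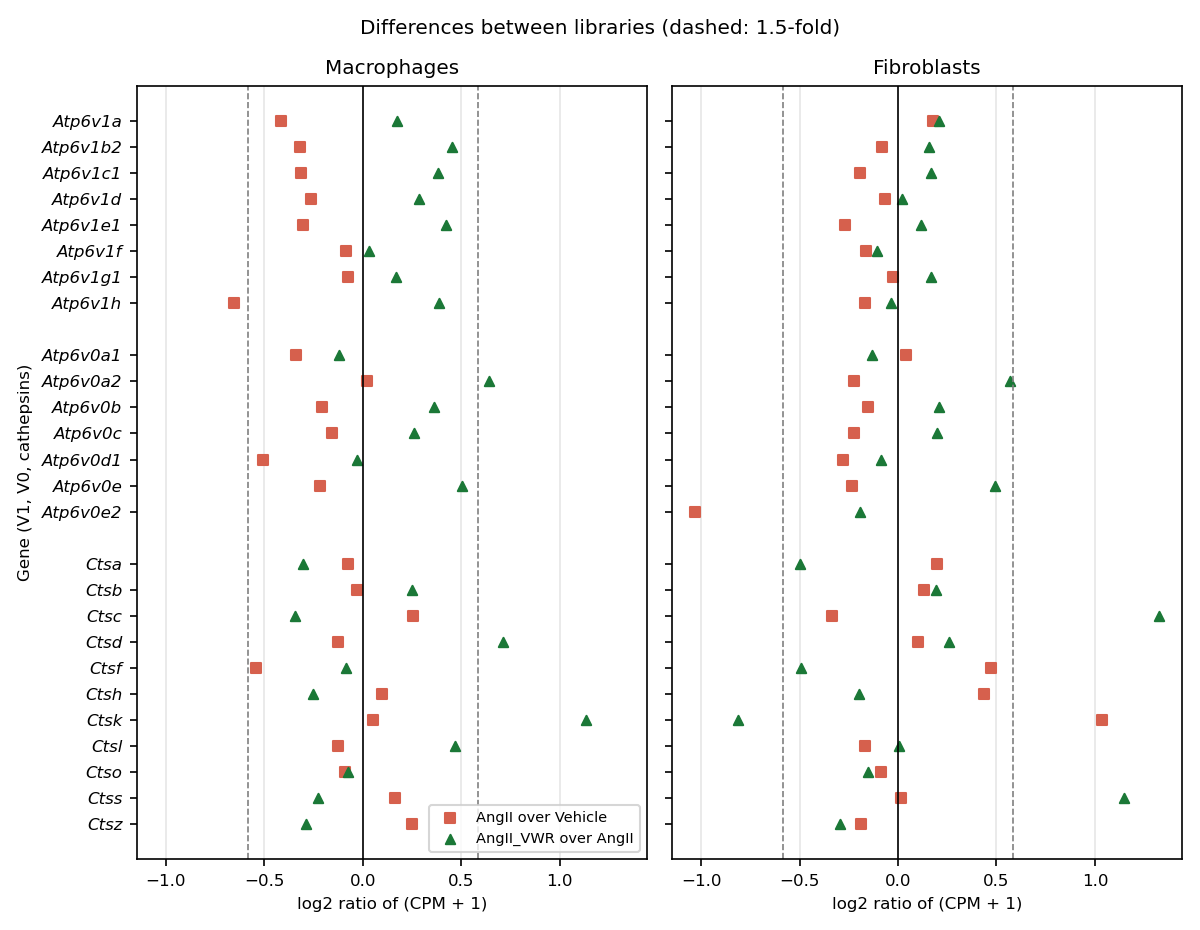
log2 ratio of CPM + 1 for each measured gene in macrophages and fibroblasts, for AngII_VWR over AngII and AngII over Vehicle, with dashed lines at 1.5-fold. Most V1 points of AngII over Vehicle lie left of 0 in macrophages and those of AngII_VWR over AngII right of it, and in fibroblasts the 2 points of Ctsk lie past the dashed lines on opposite sides, at −0.81 and 1.04.

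Macrophages differ in MHC class II, the antigen presenting molecules whose partner chain cathepsin S trims, and the libraries differed in how many cells carried it. Cells with at least 0.5% of UMIs from H2-Aa, H2-Ab1, H2-Eb1 and Cd74 were 37.7% of macrophages in AngII_VWR, 65.2% in AngII and 38.7% in Vehicle. The pump was lower in the MHC class II high cells of each library. It summed to 3707 CPM in high against 4168 CPM in low cells of AngII_VWR, 3210.4 against 3603 CPM in AngII and 3815 against 4155 CPM in Vehicle. Of 15 subunits 11 were lower in high cells in all 3 libraries and none was higher in all 3. Of all 8168 genes that reached 20 CPM by the same rule, 46.1% were lower in all 3 and 12.3% higher. Atp6v1a had 361 against 508 CPM, 353 against 485 CPM and 488 against 562 CPM in the same order of libraries.

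Cathepsins differed by gene along the same divide. Ctsh was the 1 cathepsin of 11 that was higher in high cells in all 3 libraries, at 632 against 469 CPM in AngII_VWR, 692 against 525 CPM in AngII and 688 against 538 CPM in Vehicle. Ctsd, Ctsb, Ctsl, Ctsa, Ctsf and Ctso were lower in all 3, Ctsd at 632 against 782 CPM, 395 against 526 CPM and 413 against 521 CPM. With 6 of 11 lower and 1 higher, the cathepsins were near the shares of all genes, 46.1% and 12.3%. Ctss was higher in high cells of AngII_VWR (973 against 778 CPM) and AngII (1101 against 810.4 CPM) and not in those of Vehicle (879 against 894 CPM). Within high cells alone the pump median of AngII over Vehicle was −0.21, and within low cells −0.20, so it stayed below 0 within both kinds of cell. Atp6v1h had a log2 ratio of −0.62 in high cells and −0.57 in low cells, just on either side of 1.5-fold. Ctsd in AngII_VWR over AngII was 1.60-fold higher in high cells and 1.49-fold in low cells, and Ctsk and Atp6v0a2 were past 1.5-fold in both.

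**Figure D4:**
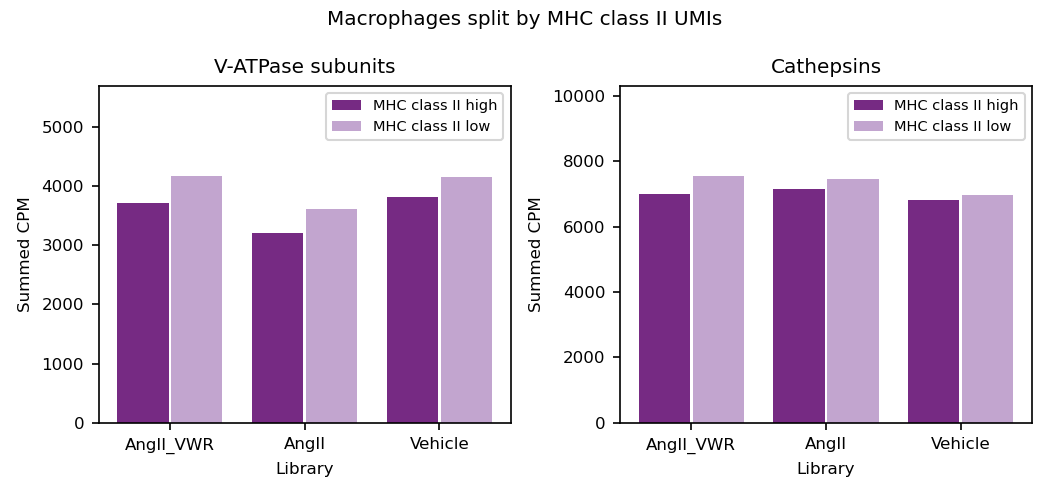
Summed CPM of pump subunits and of cathepsins in macrophages with at least 0.5% of UMIs from MHC class II genes (high) and under 0.5% (low), by library, as bars from 0. In each library the bar of the high cells is lower, for the pump at 3707 against 4168 CPM in AngII_VWR, 3210.4 against 3603 CPM in AngII and 3815 against 4155 CPM in Vehicle.

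Among the remaining cells, 6 of 28 genes measured in AngII against Vehicle were past 1.5-fold. Of all 12118 measured genes 34.6% were, 20.6% upward and 14.1% downward. Ctsw, Ctss, Ctsc, Ctse and Ctsz were higher and Ctsf lower, Ctss at 356 CPM in AngII against 92.3 CPM in Vehicle. In AngII_VWR against AngII 10 of 29 measured were past 1.5-fold, 8 higher and 2 lower. Of all genes 19.7% were, 8.94% upward and 10.8% downward. Of 16 pump subunits 15 were above 0 and 5 at least 1.5-fold higher, where 51.8% of all genes were above 0. The pump median was 0.35, beside 0.02 over all genes, and it summed to 2320 CPM against 1724 CPM. Of 13 cathepsins 10 were above 0, with 3 at least 1.5-fold higher, 2 lower and a median of 0.15. Ctsl had 557 CPM in AngII_VWR against 267 CPM in AngII and Ctsk 67.6 against 24.4 CPM. Fibroblast markers there summed to 7313 CPM in AngII_VWR against 3468 CPM in AngII, and macrophage markers to 2952 CPM in AngII against 1315 CPM in Vehicle. Neutrophil markers summed to 999 CPM in AngII_VWR against 159 CPM in AngII, and adipocyte markers to 63.0 against 769 CPM. Dendritic markers summed to 347 CPM in AngII against 61.2 CPM in Vehicle, and erythroid markers to 14847 against 60008 CPM. The part of these in the differences was not tested. Atp6v0d2 had 5.82 CPM in AngII_VWR against 0.292 CPM, from 3 UMIs, in AngII, 19.9-fold higher (6.45 to 99.8). The mix of cells differed in both pairs by these markers, and fewer cells of a type and less RNA per cell cannot be told apart in such sums. The cells were therefore grouped by marker genes, with at least 0.2% of UMIs from a list (10% for erythroid genes), in groups of at least 50 cells. No list claimed 67.9% of the remaining cells in AngII_VWR, 67.2% in AngII and 61.8% in Vehicle.

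Ctsw, the cathepsin known from natural killer and cytotoxic T cells, was found in T-like cells. It had 81.5 CPM in the 87 T-like cells of AngII_VWR (52.2 to 121), 241 CPM in the 71 of AngII (203.6 to 284) and 53.7 CPM in the 152 of Vehicle (41.0 to 69.2). Outside them it was at most 12.9 CPM, in AngII cells that no list claimed, and had no UMI in dendritic-like, neutrophil-like, B-like or endothelial-like cells. Ctse, an aspartic protease of immune cells, had 50.9, 102 and 60.004 CPM in T-like cells of AngII_VWR, AngII and Vehicle and 62.0 CPM in B-like cells of Vehicle. The 15 to 67 UMIs behind each of these Ctse values leave wide intervals, and those of AngII_VWR (28.5 to 84.0) and AngII (78.2 to 131) overlap. All remaining cells together held 68, 137 and 194 Ctse UMIs in AngII_VWR, AngII and Vehicle, so cells outside these groups also held it. Ctsw and Ctse were below 20 CPM in macrophages and fibroblasts and are named after their values were seen.

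The professional antigen presenting and phagocytic cells had levels of their own. In 52 dendritic-like cells of AngII_VWR, Ctss had 1191 CPM (1073 to 1318), Ctsc 907 CPM and Ctsh 677 CPM, and Ctsw and Ctse had no UMI. In 249 neutrophil-like cells of AngII_VWR, Atp6v0a1 had 275 CPM (228.5 to 328) and Atp6v0c 1151 CPM (1054 to 1255), against 139 and 948 CPM in macrophages of that library. Ctsh had 123 CPM in endothelial-like cells of AngII_VWR and 67.7 CPM in those of AngII, against 407 CPM in those of Vehicle. Only AngII_VWR had 50 cells of the dendritic-like and neutrophil-like kinds, so their values could not be set beside other libraries.

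**Figure D5:**
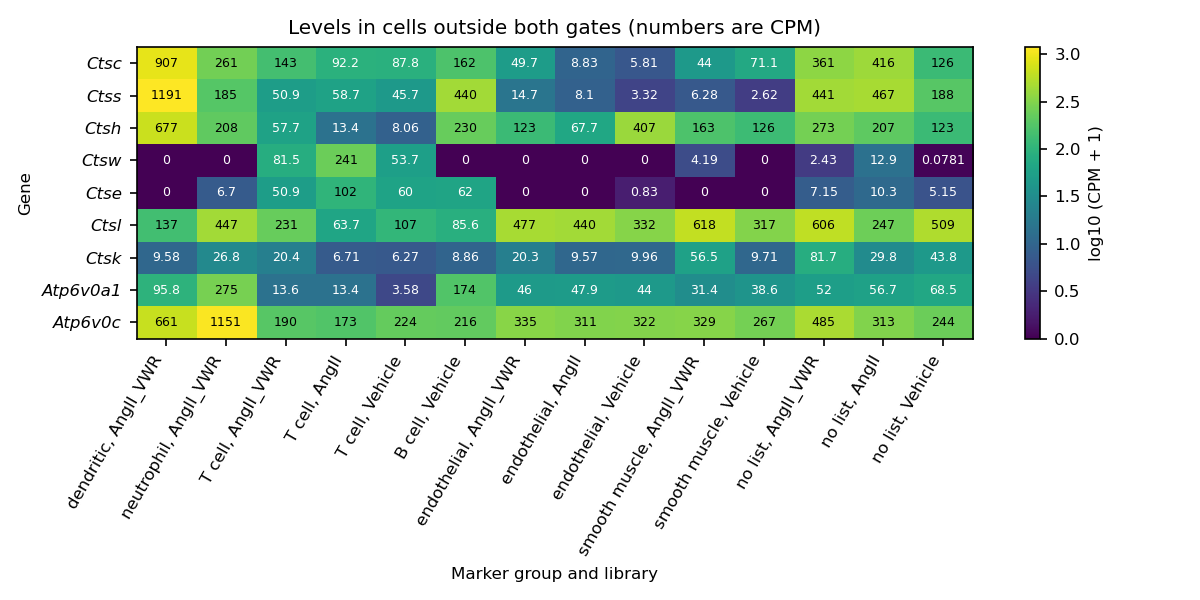
Levels of 9 genes in cells outside both gates, grouped by marker list and library (columns), with CPM written in each square and colour on a log10 scale of CPM + 1; erythroid-like cells are not drawn. Ctsw is seen in the 3 T-like columns, Ctss, Ctsc and Ctsh are at 1191, 907 and 677 CPM in the dendritic-like column, and Atp6v0a1 and Atp6v0c are at 275 and 1151 CPM in the neutrophil-like column.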

How the data were processed

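Cells of the peeled and digested aortic adventitia were profiled by 3′ droplet sequencing in 3 libraries, 1 per group. The deposited values are raw counts of UMIs, 1 value for each gene in each barcode. Per the file headers they were written by Cell Ranger 7.1.0 for AngII_VWR and 7.0.1 for AngII and Vehicle, so the version differs with the group. The genome build is mm10 per the submitters' processing notes, and whether intronic reads were counted is not given in the sources used here. Total UMIs were 105679209 in AngII_VWR, 141570158 in AngII and 165977330 in Vehicle.

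A barcode was kept if it had 300 genes and 500 UMIs or more and no more than 10% of its UMIs were mitochondrial. Scrublet (scanpy 1.11.5) scored doublets per library, and those with top scores were dropped at a rate of 0.8% per 1000 cells (2894, 784 and 1537 barcodes in AngII_VWR, AngII and Vehicle). The 76, 14 and 65 cells that met both gates were left out. Cells from 0.8 to 1.25 times the fibroblast cut made up 6.39, 3.52 and 11.1% of kept cells. UMIs were summed per class and library and scaled to CPM. Intervals are exact (Poisson for CPM, conditional for ratios, Clopper-Pearson for shares) at 95% and cover counting error only. The class comparison used edgeR 4.0.16 (R 4.3.3), with adjusted p under 0.05 as the threshold and standard errors taken from the F statistic, and DESeq2 1.42.0 as an alternative. Its p-values measure how far the ratio of macrophages over fibroblasts varied from library to library, each of another treatment. The differences between libraries that both classes share are taken up by the block. Scripts were tested on simulated data. Python 3.11.15, numpy 2.4.6, scipy 1.17.1 and pandas 2.3.3 were used.

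Named genes were the members with at least 20 CPM in macrophages or fibroblasts of a library and, of each other list, those among the 3 with the highest mean in macrophages. The members, gene lists, gates and comparisons were chosen with earlier results of these data known. The marker groups of the remaining cells and the fibroblasts with Thbs4 UMIs were chosen after their values had been seen. Gene coordinates are from GENCODE M21 (GRCm38). Alternatives changed 1 choice at a time.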

Additional observations from a re-analysis of the deposited data

Results flagged for a closer look

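Ctsk differed between the cell classes in AngII_VWR over AngII. In macrophages its log2 ratio was 1.14, and in fibroblasts −0.81, so the single libraries moved in opposite directions in the 2 classes. With 1 library per group, this difference between the classes was not tested. In macrophages, the fibroblast markers summed to 1461 CPM in AngII_VWR against 529 CPM in AngII, and to 529 CPM in AngII against 669.6 CPM in Vehicle, while Ctsk had 7.97 CPM in AngII against 7.66 CPM in Vehicle. The part of these in the result was not tested.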

How the results depend on the processing

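For macrophages over fibroblasts, 28 of the 30 genes tested were called. The counts were 29 with DESeq2 and with its size factors, 27 with no filter on low counts, with 5% free RNA subtracted and with stricter gates, and 28 with no doublet removal. Leaving out 1 library gave 24 to 26. Each library gave both classes, so the pairing comes from the library itself, and with no replicate block 26 were called. Ctsz turned to −0.11 with stricter gates, Ctsd was called with DESeq2 and with its size factors, and Ctsk was not called with free RNA subtracted, where its log2 ratio was −8.43. The counts of genes past 1.5-fold between treatments are small and moved easily. For AngII over Vehicle, 1 gene in macrophages became 2 with free RNA subtracted, with no filter on low values and in MHC class II high cells, and 0 in low cells. In fibroblasts 2 became 1, and in the remaining cells 6 became 3, with at least 50 CPM. For AngII_VWR over AngII, 3 genes in macrophages became 1 with TMM scaling, with DESeq2 size factors, with at least 50 CPM and relative to the median of all genes. In fibroblasts 3 became 5 with TMM scaling, with DESeq2 size factors and relative to the median, and 1 with at least 50 CPM or with free RNA subtracted, which by construction sets to 0 any gene under 5% of its level in the other cells. Over all these counts, 71 of 86 alternatives stayed within 1.5 times of the reported one and 15 did not. Ctsk kept to 1.5-fold in 13 of 13 alternatives in both fibroblast comparisons and in macrophages of AngII_VWR over AngII, where it ran from 0.68 with a pseudocount of 10 to 3.31 with free RNA subtracted. That subtraction set its AngII macrophage value to 0. Ctsd kept to 1.5-fold in 10 of 14 and Atp6v0a2 in 9 of 13. The ratios relative to the median of all genes and those without Thbs4 cells were added after seeing the data. With 1 library per group, no library could be left out between treatments, and depth limits the genes below 20 CPM.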
